A study of Mus musculus with 6 samples.

Results

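C-type lectin receptors are cell-surface proteins, mostly of myeloid cells, that bind glycans and other ligands of microbes and of damaged or dead host cells. The genes described here are those whose platform symbol starts with Clec followed by a number or with Cd209, together with Mrc1, Mrc2, Mgl2, Ly75, Cd69, Olr1 and Colec12. They were picked out by symbol, with earlier results of these data known, and they came to 40 of the 18193 genes measured. The 40 genes have 52 of the 45101 probe sets on the array, and where a gene had several, the brightest on average was taken.

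The study asked what a microRNA does to marrow cells that are differentiating into myeloid-derived suppressor cells, which are immature myeloid cells that dampen T cell responses. Bone marrow cells of healthy C57BL/6 mice were transfected with a miR-142-3p mimic oligonucleotide in 3 samples and with a CTRL oligonucleotide in 3 samples, both at 100 nM. All 6 cultures received GM-CSF and IL-6 from 5 h after transfection, for 4 days, so no group went without the cytokines or without an oligonucleotide. Total RNA was hybridised to Affymetrix MOE430 2.0 arrays, with 1 array per sample. The cells were whole marrow cultures with no sort described, and the sequence of the CTRL oligonucleotide is not stated in the labels. The labels do not say whether the 3 arrays of a group came from separate mice or cultures, so p-values measure the spread between these arrays, which may be technical, and 3 arrays a group limit the precision.

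The mimic copies the mature strand of miR-142-3p, a microRNA made in blood cells. Its sequence in RefSeq is given because it is the agent that separates the groups, with bases 2 to 8, the seed that pairs with target transcripts, in capitals. On GRCm38.p6 this strand lies at chr11:87756903-87756925 on the plus strand. Sites for the seed in the transcripts of the lectin genes were not analysed here.
mmu-miR-142a-3p: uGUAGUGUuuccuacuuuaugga

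Activating C-type lectin receptors bind fungal, mycobacterial or host ligands and, through their own tail or through the adaptors Fcer1g and Tyrobp, recruit the kinase Syk, which leads through Prkcd and the Card9, Bcl10 and Malt1 complex to NF-kB and cytokine genes. A related group that includes DCIR carries inhibitory tails that recruit phosphatases, and a further group takes up glycoproteins for degradation and antigen presentation. Dendritic cells, macrophages, monocytes and neutrophils each carry a different set of these receptors.

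With the mimic, 1 of the 40 lectin genes rose and 3 fell in the limma test across all genes (adjusted p under 0.05, Benjamini-Hochberg), and 36 did not pass. Clec4a3 was 3.00-fold higher. Mgl2 was 2.56-fold lower, Clec4n was 1.89-fold lower and Clec4e was 1.85-fold lower. In these bulk samples fewer cells of a type and less RNA per cell cannot be told apart. The 4 genes are 10% of the lectin genes, and 2.76% of all genes passed the same test. Over all genes 1.17% passed as higher and 1.59% as lower. The 4 calls rest on all 6 arrays: without mimic array 1, mimic array 3 or control array 2 none of the 40 lectin genes passed, without mimic array 2 only Mgl2 did, and without control array 1 or control array 3 the same 4 genes passed, joined by Clec1b without control array 1. In those fits with an array left out, the counts over all genes also ran between 0 and 413, against 503 with all 6 arrays.

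The lectin genes did not move as a block. Their median log2 fold change was 0.03, beside 0.01 over all genes, and 23 means were higher and 17 lower with the mimic. The mimic and control arrays did not overlap for 9 of the 40 genes (22.5%), 3 above and 6 below, and the same held for 22.2% of all genes. That share lies near the background and says nothing particular about the lectin genes. An unadjusted p under 0.05 was reached by 9 lectin genes (22.5%) and by 17.0% of all genes.

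Much of the family gave little signal in these cultures, in a share near that of all genes. On the deposited log2 scale, 15 of the 40 genes (37.5%) had a mean below 1, a level that 37.2% of all genes lay under. Of these 15 genes, 11 stayed below 1 in every array. Another 13 lay between 1 and 3. The 11 genes with a mean of at least 5, a level at the 77.5th percentile of all genes, were Clec4n, Clec7a, Clec4d, Clec4e, Mrc1, Clec4a2, Clec5a, Clec4a3, Mgl2, Cd69 and Clec10a. All 4 calls fell among these 11 genes, and 6.16% of all genes at that level or above passed the same test.

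**Figure D1:**
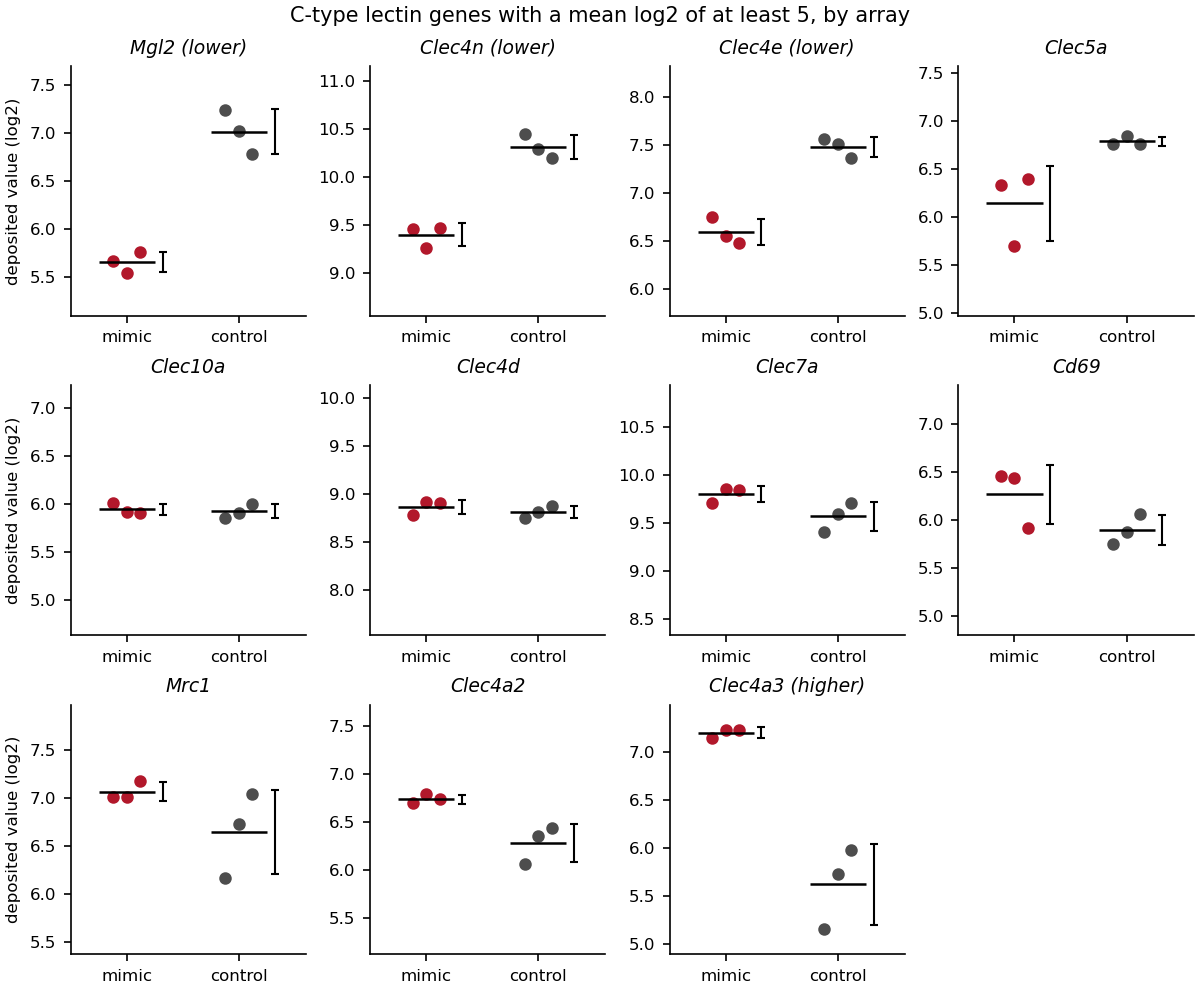
Deposited log2 value (vertical axis, a span of 2.6 in each panel) of the 11 C-type lectin genes with a mean of at least 5 in the 3 mimic arrays (red) and the 3 control arrays (grey), with the group mean as a line and its SD as a bar. In Mgl2, Clec4n, Clec4e and Clec5a every mimic array lies below every control array, and in Clec4a2 and Clec4a3 every mimic array lies above.

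**Figure D2:**
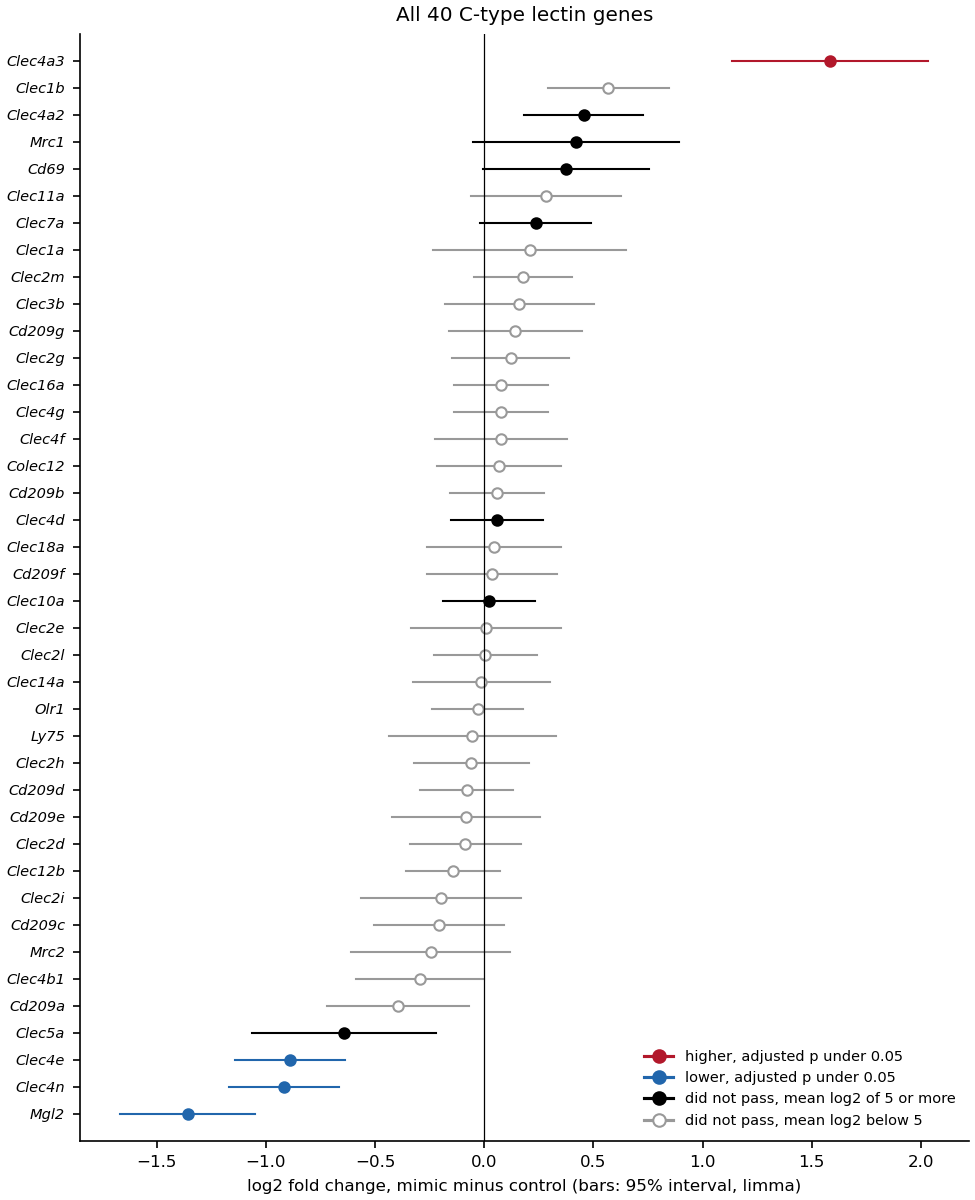
Log2 fold change, mimic minus control, of all 40 C-type lectin genes with its 95% interval from limma. The 3 falls (blue) and the 1 rise (red) have intervals clear of 0. So do Clec5a, Clec4a2, Clec1b, Cd209a and Clec4b1, which did not pass after adjustment. Most genes with a mean below 5 (open circles) lie near 0, apart from Clec1b at 0.57 and Cd209a at -0.39.

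The receptors that signal through Syk were Clec7a, Clec4n, Clec4e, Clec4d, Clec1b and Clec5a. Of these 6, 2 fell (33.3%), none rose and 4 did not pass, with a median log2 fold change of -0.29. Over all genes 2.76% passed, and 6.16% of those with a mean of at least 5 did. Clec4n, which encodes Dectin-2, the receptor for fungal mannans that pairs with Fcer1g, gave log2 values of 9.46, 9.26 and 9.47 in mimic arrays 1, 2 and 3, against 10.45, 10.29 and 10.19 in control arrays 1, 2 and 3. Every mimic array lay below every control array, with a gap that was wider than the spread within either group. The means were 9.40 ± 0.12 with the mimic and 10.31 ± 0.13 with the control oligonucleotide (SD, n = 3 each), a log2 fold change of -0.92 ± 0.11 (SE) with a limma adjusted p of 0.0111. A second Clec4n probe set read 9.0, 8.58 and 9.19 in the mimic arrays and 10.04, 9.78 and 9.54 in the control arrays, and its log2 fold change of -0.86 ± 0.19 did not pass when all probe sets were tested (limma adjusted p of 0.0899). Its groups were apart in the same direction.

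Clec4e encodes Mincle, the Fcer1g-coupled receptor for mycobacterial cord factor and for a protein released by dying cells. Its log2 values were 6.75, 6.56 and 6.48 in the mimic arrays and 7.56, 7.51 and 7.37 in the control arrays, so the groups did not overlap. The means were 6.59 ± 0.14 with the mimic and 7.48 ± 0.10 with the control oligonucleotide (SD, n = 3 each), with a log2 fold change of -0.89 ± 0.11 and a limma adjusted p of 0.0118. The second probe set of Clec4e read 4.80, 4.58 and 4.46 in the mimic arrays and 5.62, 5.66 and 5.59 in the control arrays, and it fell too, by 1.01 ± 0.11 on the log2 scale (limma adjusted p of 0.0179 with all probe sets tested).

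Clec4d encodes MCL, which pairs with Mincle and, in the mouse, lies between Clec4n and Clec4e on chromosome 6. It did not move with its neighbours. The log2 values of Clec4d were 8.78, 8.91 and 8.90 in the mimic arrays and 8.74, 8.81 and 8.87 in the control arrays, and the groups overlapped. Its log2 fold change was 0.06 ± 0.09, with a 95% interval from -0.15 to 0.27 (limma adjusted p of 0.812), which leaves out a fall of the size seen in Clec4n and Clec4e.

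Clec7a encodes Dectin-1, the receptor for fungal beta-glucan, which signals through its own tail. Its log2 values were 9.70, 9.86 and 9.85 in the mimic arrays and 9.40, 9.59 and 9.70 in the control arrays. The groups overlapped narrowly, with control array 3 (9.704) just above mimic array 1 (9.703). The log2 fold change was 0.23 ± 0.11, with a 95% interval from -0.02 to 0.49 (limma adjusted p of 0.332). Clec5a encodes MDL-1, which signals through Tyrobp. Its log2 values were 6.34, 5.70 and 6.40 in the mimic arrays and 6.76, 6.85 and 6.77 in the control arrays. The groups did not overlap, with mimic array 2 far below the other mimic arrays, and the log2 fold change of -0.64 ± 0.18 did not pass (limma adjusted p of 0.122). Without mimic array 2 it was -0.42.

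Clec1b encodes CLEC-2, the podoplanin receptor of platelets and some myeloid cells. Its log2 values were 4.85, 4.81 and 4.91 in the mimic arrays and 4.52, 4.14 and 4.20 in the control arrays. The mimic arrays were all higher, and the log2 fold change of 0.57 ± 0.12 lay just outside the threshold (limma adjusted p of 0.0541), which it passed under 7 of 14 alternatives. The summed signal of 4 megakaryocyte and platelet markers ran from 810 to 917 in the mimic arrays and from 600 to 726 in the control arrays on the linear scale, with none of the 4 past the test, and their part in the Clec1b values was not tested.

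Clec4a3 rose where Clec4n and Clec4e fell, although all of them lie in the same stretch of chromosome 6. Of Clec4a2, Clec4a3, Clec4b1 and Clec12b, 1 rose and 3 did not pass, beside 2.76% of all genes that passed. Clec4a3, which encodes DCIR3, a close relative of the inhibitory receptor DCIR, gave log2 values of 7.14, 7.24 and 7.23 in the mimic arrays and 5.15, 5.73 and 5.98 in the control arrays. The mimic arrays were tightly grouped above the control arrays, among which control array 1 was the lowest. The means were 7.20 ± 0.05 with the mimic and 5.62 ± 0.42 with the control oligonucleotide (SD, n = 3 each), and the log2 fold change was 1.58 ± 0.19 (95% interval 1.13 to 2.03, limma adjusted p of 0.0121). Without control array 1 it was 1.35, and it still passed.

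Clec4a2 encodes DCIR itself, whose tail carries an inhibitory motif. Its log2 values were 6.69, 6.79 and 6.73 in the mimic arrays and 6.06, 6.36 and 6.43 in the control arrays. The mimic arrays were all higher, but the log2 fold change of 0.45 ± 0.12 did not pass (limma adjusted p of 0.0963). A second Clec4a2 probe set read 4.39, 4.55 and 4.24 in the mimic arrays and 3.81, 3.91 and 4.13 in the control arrays, again without overlap, with a log2 fold change of 0.44 ± 0.13 that did not pass. Clec4b1, a related gene known as DCAR, read 1.13, 0.89 and 0.99 in the mimic arrays and 1.13, 1.52 and 1.24 in the control arrays, values near the bottom of the scale. Its log2 fold change was -0.29 ± 0.13 (limma adjusted p of 0.292). The probe set that matches both Clec4b1 and Clec4a2 was left out, and the DCIR genes resemble each other closely, so their probe sets may share signal, which was not tested.

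RefSeq places 9 protein-coding lectin genes side by side in this stretch, in the order Clec4a1, Clec4a3, Clec4a4, Clec4b1, Clec4a2, Clec4b2, Clec4n, Clec4d and Clec4e, of which 6 were measured here. Along it the log2 fold changes were 1.58 for Clec4a3, -0.29 for Clec4b1, 0.45 for Clec4a2, -0.92 for Clec4n, 0.06 for Clec4d and -0.89 for Clec4e. In this order the 1 rise came first among the genes measured, and the 2 falls lay toward the other end, on either side of Clec4d. The 3 genes that did not pass were Clec4b1, Clec4a2 and Clec4d.

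**Figure D3:**
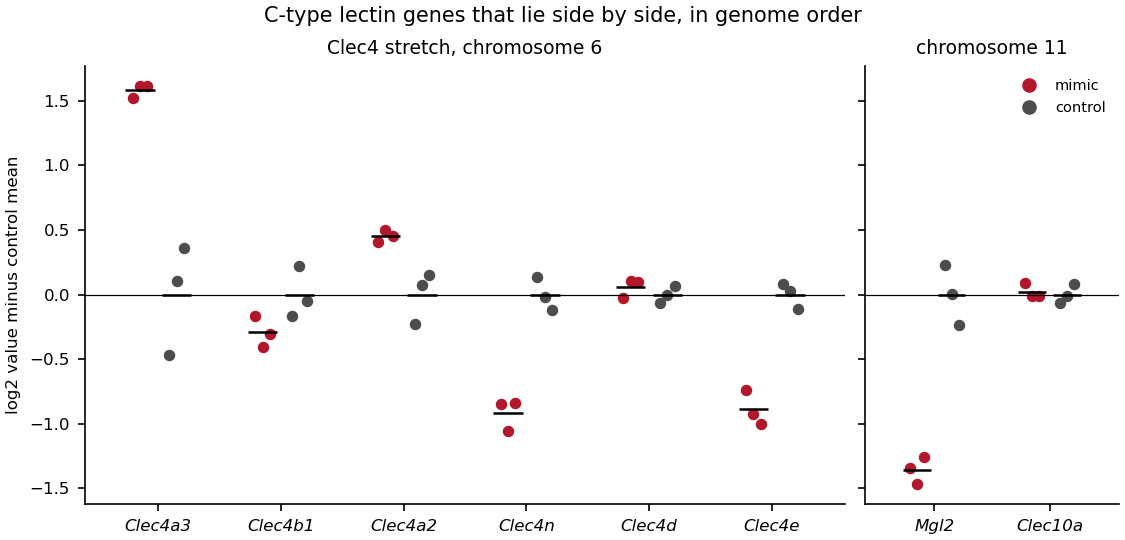
Log2 value of each array minus the control mean of the same gene (vertical axis) for 6 lectin genes of chromosome 6 and 2 of chromosome 11, in genome order, with mimic arrays in red, control arrays in grey and group means as lines. Clec4d, at 0.06, sits between Clec4n at -0.92 and Clec4e at -0.89, and Mgl2, at -1.36, sits beside Clec10a at 0.02.

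Among 14 endocytic glycan receptors 1 fell (7.14%, beside 2.76% of all genes that passed), none rose and 13 did not pass. Mgl2, which encodes the galactose-type lectin CD301b of dendritic cells and macrophages, gave log2 values of 5.67, 5.54 and 5.75 in the mimic arrays and 7.24, 7.02 and 6.78 in the control arrays. The groups did not overlap, and control array 1 was the highest of all. The means were 5.65 ± 0.11 with the mimic and 7.01 ± 0.23 with the control oligonucleotide (SD, n = 3 each), with a log2 fold change of -1.36 ± 0.13 and a limma adjusted p of 0.00673. This was the lowest adjusted p of the 40 genes. Without control array 1 the log2 fold change was -1.24, which passed.

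Clec10a, the neighbour of Mgl2 on chromosome 11, encodes the sister lectin CD301a. It gave log2 values of 6.01, 5.91 and 5.91 in the mimic arrays and 5.86, 5.91 and 6.01 in the control arrays, and the groups overlapped throughout. The log2 fold change was 0.02 ± 0.09, with a 95% interval from -0.19 to 0.23 (limma adjusted p of 0.940). The interval of Mgl2, from -1.67 to -1.05, lies wholly outside that of Clec10a.

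Mrc1, which encodes the mannose receptor CD206, read 7.01, 7.01 and 7.18 in the mimic arrays and 6.17, 6.73 and 7.04 in the control arrays. Control array 1 was again the lowest, control array 3 lay within the mimic values, and the log2 fold change of 0.42 ± 0.20 did not pass (limma adjusted p of 0.357). Without control array 1 it was 0.18. Cd209a, the mouse counterpart of the dendritic cell lectin DC-SIGN, read 0.59, 0.66 and 0.61 in the mimic arrays and 1.32, 0.85 and 0.85 in the control arrays. The groups did not overlap, at values near the bottom of the scale, and the log2 fold change of -0.39 ± 0.14 did not pass (limma adjusted p of 0.201), and it was -0.24 without control array 1. Ly75, which encodes the antigen-uptake receptor DEC-205, averaged 1.47 with the mimic and 1.53 with the control oligonucleotide and did not pass. The other Cd209 genes, Mrc2, Clec4f and Clec4g had group means between 0.18 and 1.43 and did not pass.

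None of the 7 ligands of natural killer cell receptors and activation antigens passed. Cd69, an early activation antigen of leukocytes, gave log2 values of 6.45, 6.44 and 5.91 in the mimic arrays and 5.75, 5.87 and 6.06 in the control arrays. Mimic array 3 lay among the control values, and the log2 fold change was 0.37 ± 0.16 (limma adjusted p of 0.303). Clec2d, a ligand of Klrb1 receptors, averaged 1.72 with the mimic and 1.81 with the control oligonucleotide. Among the scavenger receptors, Olr1, the receptor for oxidised low-density lipoprotein, averaged 2.98 with the mimic and 3.01 with the control oligonucleotide, and its log2 fold change of -0.03 ± 0.09 did not pass. Of the secreted, endothelial and other genes, Clec11a, which encodes a secreted growth factor, averaged 1.68 with the mimic and 1.40 with the control oligonucleotide, with a log2 fold change of 0.28 ± 0.15 that did not pass. In all, 26 of the 40 genes were neither past the test, nor at a mean of 5, nor among the 3 with the next largest changes. Their log2 fold changes ran from -0.25 to 0.28, and 14 of them had a mean below 1.

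**Figure D4:**
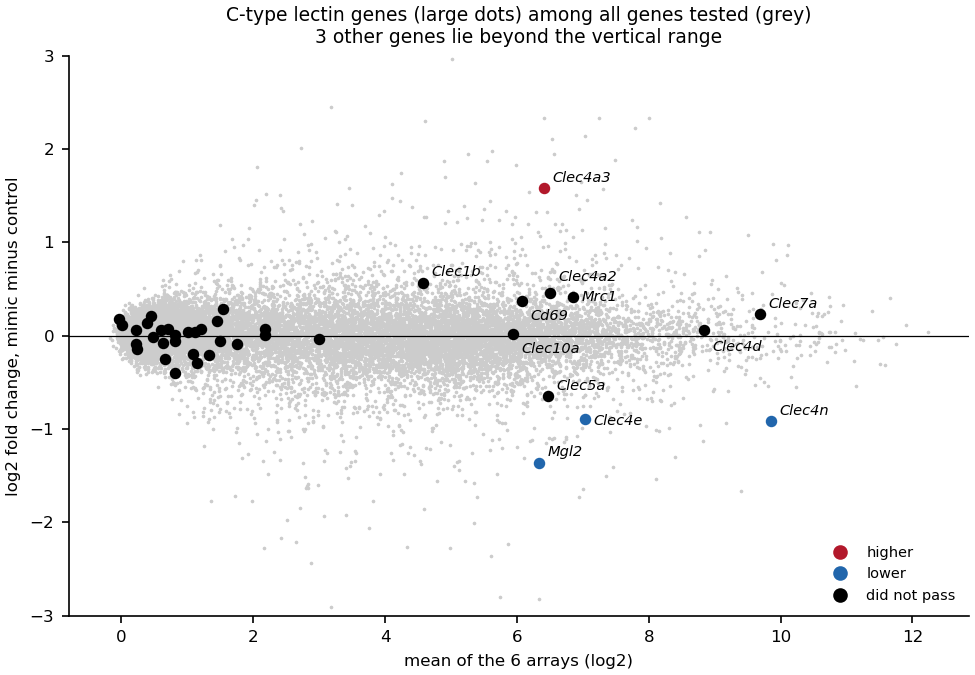
Log2 fold change, mimic minus control (vertical axis), against the mean log2 value of the 6 arrays (horizontal axis) for the 40 C-type lectin genes (large dots) among all 18193 genes tested (grey), with 3 other genes beyond the vertical range. Clec4a3 at 1.58 and Mgl2 at -1.36 are the largest rise and fall of the 40, while all genes with a mean of at least 5 ran from -2.82 to 4.995. Lectin genes with low means lie within the grey cloud.

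A p that misses the threshold does not show equal levels, and the precision differed between genes. Of the 7 genes with a mean of at least 5 that did not pass, the 95% interval of the log2 fold change stayed within 0.5 of 0 for Clec10a, Clec4d and Clec7a. For Clec4a2, Clec5a, Cd69 and Mrc1 it reached beyond. The intervals of Clec4a2 (0.18 to 0.73) and Clec5a (-1.07 to -0.22) left out 0.

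Promoters of 4 of these genes are shown because adjacent genes moved differently, namely Clec4e and Clec4d, and because Mgl2 and Clec4a3 had the largest fall and rise. Each is the 250 bases before the first start listed in RefSeq on GRCm38.p6, read 5′ to 3′ on the strand of the gene. Capitals mark the letters GAGGAA, the core bound by the myeloid factor PU.1, the C/EBP-type letters TTGCNNAA and the NF-kB-type letters GGGA and CC with any 4 bases between them, each on either strand, with no overlap between the matches. The Mgl2 region is chr11:70130107-70130356 on the plus strand, that of Clec4e is chr6:123289872-123290121 on the minus strand, that of Clec4d is chr6:123261857-123262106 on the plus strand and that of Clec4a3 is chr6:122952265-122952514 on the plus strand. Clec4n and Clec10a have no entry in the table used.
Mgl2: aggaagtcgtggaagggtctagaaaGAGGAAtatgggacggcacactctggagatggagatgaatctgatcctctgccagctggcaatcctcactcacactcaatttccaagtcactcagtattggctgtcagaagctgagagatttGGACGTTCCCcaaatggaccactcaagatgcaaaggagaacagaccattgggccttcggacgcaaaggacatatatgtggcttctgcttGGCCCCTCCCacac
Clec4e: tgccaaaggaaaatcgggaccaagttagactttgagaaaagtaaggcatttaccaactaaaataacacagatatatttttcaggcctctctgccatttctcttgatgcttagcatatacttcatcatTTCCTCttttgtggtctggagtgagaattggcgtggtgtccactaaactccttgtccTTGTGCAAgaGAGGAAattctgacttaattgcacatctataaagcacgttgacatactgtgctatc
Clec4d: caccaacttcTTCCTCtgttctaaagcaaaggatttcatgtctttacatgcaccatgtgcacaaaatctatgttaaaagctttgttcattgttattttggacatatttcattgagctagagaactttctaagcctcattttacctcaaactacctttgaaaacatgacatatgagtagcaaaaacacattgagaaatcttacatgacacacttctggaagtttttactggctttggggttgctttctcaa
Clec4a3: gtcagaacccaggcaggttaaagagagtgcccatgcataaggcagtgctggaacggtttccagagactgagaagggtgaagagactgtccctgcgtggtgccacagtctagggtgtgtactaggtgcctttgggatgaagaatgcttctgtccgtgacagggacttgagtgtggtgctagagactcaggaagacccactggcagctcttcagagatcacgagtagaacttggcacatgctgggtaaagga

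In these windows Mgl2 held GAGGAA at 225 bases before the start and the NF-kB-type letters at 103 and 14 bases before it. Clec4e held GAGGAA on the plus strand at 56 bases and on the other strand at 123 bases before its start, with the C/EBP-type letters at 66 bases. Clec4d held GAGGAA once, on the other strand at 240 bases before its start. Clec4a3 held none of the 3 motifs before the start shown, and a second listed start of Clec4a3 has GAGGAA in its window.

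Over all RefSeq genes with an entry, 6252 of 27025 windows (23.1%) held GAGGAA on either strand, and 806 of 3395 (23.7%) did among genes with a mean of at least 5 on these arrays. It was found in 14 of the 33 lectin genes with an entry (42.4%), and in 6 of the 8 with a mean of at least 5, namely Clec4d, Clec4e, Clec5a, Clec7a, Mgl2 and Mrc1. Those 6 genes include falls and genes that did not pass, and the genes without a match were Clec4a2 and Clec4a3. With any listed start counted, 7 of the 8 held GAGGAA, Clec4a3 among them, beside 25.9% of all genes. Whether the match goes with the direction of change was not tested. The C/EBP-type letters were in 5 of the 33 lectin windows (15.2%) and 9.55% of all windows, and the NF-kB-type letters in 5 of 33 (15.2%) and 17.3%. At a mean of at least 5 they were in 1 and 2 of the 8 lectin windows, beside 7.95% and 22.1% of all genes at that level. The AP-1 letters TGANTCA were in 7 of 33 (21.2%) and 6.87% of all windows. The IRF-type letters, GAAA and GAAA with any 2 bases between them, were in 2 of 33 (6.06%) and 3.04%. Both were in 0 of the 8 lectin windows at a mean of at least 5, beside 4.42% and 3.45% of all genes at that level. A match is a description of letters in a window, and no binding was measured.

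Of 37 listed proteins that carry signals from these receptors, 32 were measured, and 5 of the 32 fell (15.6%), none rose and 27 did not pass, with a median log2 fold change of -0.15. The mimic and control arrays did not overlap for 18 of the 32, of which 16 were below. Over all genes 2.76% passed and 22.2% had groups apart, and among genes with a mean of at least 5 these shares were 6.16% and 41.3%. Fgr, a Src-family kinase of myeloid cells, read 5.02, 5.15 and 5.36 in the mimic arrays and 6.70, 6.33 and 6.12 in the control arrays. It fell by 1.21 ± 0.16 on the log2 scale (limma adjusted p of 0.0144), with no overlap between the groups.

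Malt1, the protease of the complex downstream of Syk, read 4.82, 4.89 and 4.59 in the mimic arrays and 5.64, 5.65 and 5.37 in the control arrays, with a log2 fold change of -0.79 ± 0.12 (limma adjusted p of 0.0215). Prkcd, the kinase that links Syk to that complex, read 7.88, 7.62 and 7.99 in the mimic arrays and 8.66, 8.52 and 8.41 in the control arrays, with a log2 fold change of -0.70 ± 0.12 (limma adjusted p of 0.0304). The groups were apart in both genes. Btk, a kinase upstream of phospholipase C, fell by 0.60 ± 0.10 on the log2 scale (limma adjusted p of 0.0246), with means of 4.39 in the mimic arrays and 4.99 in the control arrays. Nfatc2, a calcium-regulated transcription factor, fell by 0.61 ± 0.12 (limma adjusted p of 0.0391), with means of 3.77 in the mimic arrays and 4.38 in the control arrays. Neither Syk nor either adaptor passed.

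Syk itself read 7.04, 7.33 and 7.37 in the mimic arrays and 7.66, 7.51 and 7.38 in the control arrays, with a log2 fold change of -0.27 ± 0.13 (limma adjusted p of 0.334). The adaptors gave log2 fold changes of -0.11 ± 0.08 for Fcer1g and -0.16 ± 0.09 for Tyrobp (limma adjusted p of 0.598 and 0.439). Card9 was not analysed here. The count of 5 was 2 with replicate numbers as a block, 0 without mimic array 1, 2 or 3 or control array 2, and 2 without control array 1 or 3.

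A list of 32 other genes with a C-type lectin-like domain, outside the symbols above, had 28 measured. Of these 1 rose, 1 fell and 26 did not pass, so 7.14% passed, beside 2.76% of all genes. Cd302, an endocytic lectin of myeloid cells, read 5.04, 5.08 and 4.77 in the mimic arrays and 6.69, 6.42 and 6.22 in the control arrays. Its log2 fold change was -1.48 ± 0.15 (limma adjusted p of 0.00673). Klrk1, which encodes the activating receptor NKG2D, read 3.25, 3.37 and 3.32 in the mimic arrays and 2.24, 2.50 and 2.44 in the control arrays, and rose with a log2 fold change of 0.92 ± 0.10 (limma adjusted p of 0.00859). Both genes had groups that did not overlap, and 17 of the 28 had a mean below 1.

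Markers of several marrow cell types differed between the groups beside these receptors. The counts of markers past the test stand beside 2.76% of all genes and 6.16% of those with a mean of at least 5. The summed linear signal of 13 dendritic cell markers was 534 to 549 in the mimic arrays and 1337 to 2986 in the control arrays. Of the 13, 7 were lower and none higher in the test. Flt3, Zbtb46, Batf3, Dpp4, Siglech and Xcr1 did not pass, and Xcr1 was below 1 on the log2 scale in both groups. Cd74 was the brightest of the 13 and weighed most in the sum, with means of 8.58 with the mimic and 10.24 with the control oligonucleotide. Within the control group the dendritic cell sum was 2986, 1811 and 1337 in control arrays 1, 2 and 3. Control array 1 also had the highest Mgl2, Clec4n and Clec4e and the lowest Clec4a3 values. It stood apart in other lists as well, with the highest macrophage sum of the control arrays (1333 against 1288 and 1255). Its sums were the lowest of the control arrays for neutrophil precursors (2233 against 3253 and 3808) and mature neutrophils (10334 against 11732 and 11731). Without control array 1 the log2 fold changes were -0.85 for both Clec4n and Clec4e, and both passed. With mimic array 1, 2 or 3 or control array 2 left out neither passed. The part of dendritic cells in the Mgl2, Clec4n and Clec4e results was not tested.

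The sum over 5 measured general monocyte and myeloid markers was 2241 to 2438 in the mimic arrays and 3263 to 3358 in the control arrays, and 4 of the 5 were lower in the test (Itgam, Ccr2, Cd14 and Lyz2). For 9 macrophage markers it was 1103 to 1176 in the mimic arrays and 1255 to 1333 in the control arrays, with 1 higher and 1 lower in the test, and Cd163 and Vsig4 below 1. In the macrophage list 4 of the 9 means were higher with the mimic and 5 lower, with a median log2 fold change of -0.0050. Csf1r was the gene that fell and C1qb the gene that rose. Markers of neutrophil precursors summed to 5792 to 5849 in the mimic arrays and 2233 to 3808 in the control arrays, with 2 of 5 higher. Those of mature neutrophils summed to 11717 to 11870 in the mimic arrays and 10334 to 11732 in the control arrays, with 1 of 7 lower. The part of these cell types in the Clec4a3, Clec4n, Clec4e, Malt1, Prkcd, Fgr and Btk results was not tested.

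Mast cell and basophil markers summed to 685 to 771 in the mimic arrays and 293 to 545 in the control arrays, with 2 of 5 higher. Markers of T and NK cells summed to 49 to 56 in the mimic arrays and 16 to 27 in the control arrays, with Gzmb higher in the test and Ncr1 below 1. The gene Cd3e, of the T cell receptor complex, averaged 2.20 with the mimic and 2.28 with the control oligonucleotide, whereas Nkg7, a gene of cytotoxic granules, averaged 4.92 with the mimic and 3.29 with the control oligonucleotide. The part of these cells in the Klrk1 rise was not tested. B cell markers summed to 24 to 27 in the mimic arrays and 37 to 41 in the control arrays, with Ms4a1 lower. Those of endothelium and stroma summed to 31 to 37 in the mimic arrays and 28 to 42 in the control arrays, with none of 6 past the test and Cdh5 below 1.

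**Figure D5:**
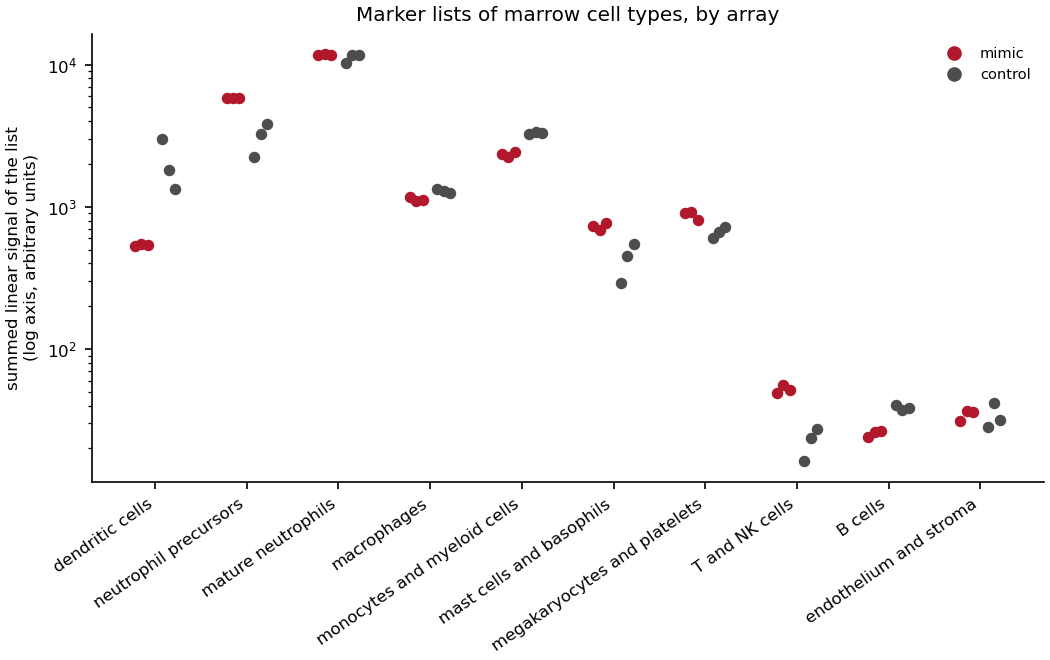
Summed linear signal (vertical axis, log scale, arbitrary units) of marker lists of 10 marrow cell types in the 3 mimic arrays (red) and the 3 control arrays (grey). The dendritic cell sum is 534 to 549 in the mimic arrays and 1337 to 2986 in the control arrays, and the neutrophil precursor sum is 5792 to 5849 in the mimic arrays and 2233 to 3808 in the control arrays.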

How the data were processed

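The deposited table holds 1 log2 value per probe set and array, made by the authors with RMA and affy per the submitters' processing notes, which give no versions. The sources used here name no probe set definitions or filters. Base 2 was inferred: the maximum, 12.3, is above 11.1, the natural log of a saturated scanner pixel. Values ran down to -0.39, 52.6% lay below 1, and array medians were 0.88 to 0.91 with the mimic and 0.84 to 0.92 with the control oligonucleotide. No arrays were identical, and their correlations ran from 0.982 to 0.996. They were used as deposited.

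Of 45101 probe sets, 34945 had 1 symbol in the platform annotation and were kept, and 34741 of these were matched to a RefSeq gene. Probe sets with several symbols (932), none (9160) or controls (64) were left out. The two-sided test was limma's moderated test (limma 3.58.1, R 4.3.3, functions lmFit and eBayes) without covariates, adjusted by Benjamini-Hochberg over 18193 genes with a threshold of 0.05, and the median SE was 0.12. In simulated data for this comparison with 18193 genes the test recovered 26.2%, 77.2% and 98.3% of log2 changes of 0.5, 1 and 2. Of its calls there, 2.90% were false. These rates describe the simulated data only. Whether they hold for these arrays, or for the many lectin genes with little signal, was not tested.

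The genes, the lists of signalling proteins, other lectins and cell markers, and the alternatives were chosen with earlier results of these data known. Named with values are members past the threshold, members with a group mean of at least 5 and the 3 others with the largest changes. So are partners and other lectins past the threshold, and Syk, Fcer1g and Tyrobp. The remaining members have group means or ranges, with log2 fold changes also given for Olr1 and Clec11a. Summed signals are sums of 2 to the power of the log2 value, and the brightest probe sets weigh most in them. Promoters came from a RefSeq table (GRCm38.p6) with 33 of the 40 genes. Transcript sites of the seed were not used here. Alternatives were other filters on dim genes, other probe set choices, other normalisations, other variance models, a replicate block and leaving out each array.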

Additional observations from a re-analysis of the deposited data

How the results depend on the processing

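Leaving out each array in turn gave 0 to 2 lectin genes higher, 0 to 3 lower, 0 to 413 genes over the whole array and 0 to 2 signalling partners, against 1, 3, 503 and 5 with all arrays. In the 3 fits with 0 calls, 2343, 2746 and 2564 genes had an unadjusted p under 0.05, without mimic array 1, mimic array 3 and control array 2 in that order, and 8 lectin genes did in each. Over the 6 fits with an array left out the log2 fold changes ran from -1.48 to -1.24 for Mgl2, -0.97 to -0.85 for Clec4n, -0.97 to -0.83 for Clec4e and 1.35 to 1.76 for Clec4a3. The median over the lectin genes ran from -0.0192 to 0.0511, and that of Clec10a ran from -0.0127 to 0.0603 and changed sign without mimic array 1 and without control array 1. With all 6 arrays, the same 4 lectin genes passed under each of the other alternatives run. The count of higher lectin genes was 2 with a mean of at least 3 or 5, the mean of all probe sets, a trended robust variance, array weights, arrays centred on medians and quantile normalisation, through Clec1b in each except a mean of at least 5, where Clec4a2 passed and Clec5a joined the falls (4 lower). The median was 0.15 among genes with a mean of at least 3. Over all genes 295 passed with all probe sets tested and 1047 with array weights. Partners numbered 3 with a mean of at least 5 and with all probe sets tested. Whether the replicate numbers pair the samples is not known. The deviations of same-numbered arrays correlated at -0.10, 0.25 and -0.19, and not every array correlated best with its own number. With 3 arrays a group, whose deviations depend on each other, these values cannot settle it. With the replicate block the same 4 lectin genes passed, with 314 genes over the whole array and 2 partners. Signal near the bottom of the scale limits what can be said of the 15 lectin genes with a mean below 1.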

Other observations

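Asgr2, a hepatic asialoglycoprotein receptor subunit that RefSeq places beside Mgl2 on chromosome 11, had the widest difference of the 28 other lectin genes measured, and it is named because of that value. Its log2 values were 0.89, 1.31 and 0.89 in the mimic arrays and 4.43, 3.30 and 2.17 in the control arrays. The groups did not overlap, the control arrays were spread widely, and the log2 fold change of -2.27 ± 0.49 did not pass (limma adjusted p of 0.0563). The order of the 3 control arrays in Asgr2 was the order of their summed dendritic cell markers, 2986, 1811 and 1337. That order was not particular to dendritic cells. Macrophage sums fell in it too (1333, 1288 and 1255), and neutrophil precursor sums rose in it (2233, 3253 and 3808). The part of any of these cell types in the Asgr2 values was not tested. Asgr1, on the other side of Asgr2, had a mean below 1.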
